A study of Mus musculus with 12 samples.

Results

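Desmosomes are the junctions that weld keratinocytes to one another, and the 10 genes described here encode their main components: the desmogleins Dsg1a, Dsg1b, Dsg2 and Dsg3, the desmocollins Dsc1, Dsc2 and Dsc3, plakophilin 1 (Pkp1), plakoglobin (Jup) and desmoplakin (Dsp). They were taken by symbol from a count table of 46078 mouse genes, and all 10 were found, each under a single identifier. The table covers the skin epidermis of newborn mice in 12 RNA-seq libraries, 1 per mouse, in 4 genotype groups of 3. The Llgl cKO Trp53 het group carries K14-Cre with Llgl1/2 flox/flox and with Trp53 +/flox. The Llgl cKO group has K14-Cre with Llgl1/2 flox/flox, the Trp53 het group has K14-Cre with Trp53 +/flox, and the control group has K14-Cre alone. All 4 groups therefore carry the K14-Cre transgene, which is driven by a basal keratinocyte promoter. Cells that never used that promoter keep intact alleles, and a single Trp53 allele is floxed in the heterozygous groups.

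In a desmosome, desmogleins and desmocollins are cadherins that span the membrane and bind their partners on the neighbouring cell. Their tails hold plakoglobin and plakophilins, armadillo-repeat proteins that pass the link on to desmoplakin, and desmoplakin ties the plaque to keratin filaments. In mouse epidermis the cadherins change with differentiation: Dsg3 and Dsc3 are strongest in the basal and lower layers, and Dsg1 and Dsc1 take over towards the surface. Llgl1 and Llgl2 are homologues of the Drosophila polarity gene lethal giant larvae, and Trp53 encodes the tumour suppressor p53.

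A pair of promoters is shown, 250 bases upstream of an annotated RefSeq start (GRCm38.p6). The first belongs to Jup, the plaque gene whose level varied most among the plaque members (chr11:100397791-100398040, minus strand), and the second to the plakophilin Pkp4, the further desmosome gene that rose in the Llgl groups (chr2:59161619-59161868, plus strand, before a start inside the annotated gene). Both read 5′ to 3′ on the gene's strand, and capitals mark GC-box letters (GGGCGG on either strand).
Jup: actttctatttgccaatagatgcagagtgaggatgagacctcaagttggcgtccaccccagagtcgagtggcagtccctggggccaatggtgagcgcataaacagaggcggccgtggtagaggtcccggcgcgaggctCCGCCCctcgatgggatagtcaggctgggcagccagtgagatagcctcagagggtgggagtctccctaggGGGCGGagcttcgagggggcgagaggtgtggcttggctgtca
Pkp4: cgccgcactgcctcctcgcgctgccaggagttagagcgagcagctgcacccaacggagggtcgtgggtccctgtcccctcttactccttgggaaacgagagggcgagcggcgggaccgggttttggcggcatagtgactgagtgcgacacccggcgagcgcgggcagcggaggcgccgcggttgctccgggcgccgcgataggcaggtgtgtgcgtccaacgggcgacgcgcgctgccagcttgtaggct
The Jup window held 2 GC-box matches and the Pkp4 window 0, where 32.7% of 32851 mouse promoter windows held at least 1. Neither window held TATAAA (12.4% of windows), the AP-1 letters TGANTCA (6.75%), the grainyhead letters AACCGGTT (0.116%) or a p53 family decamer (7.13%), each sought on both strands. The only matches were the 2 GC boxes, which do not overlap, and absence of the letters says nothing of the factors. None of the bases of either window lie in annotated exons.

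The 7 cadherin genes lie side by side at chr18:19960930-20604521 (GRCm38), a stretch of 643.6 kb. That stretch holds 9 protein-coding genes in the GENCODE M21 annotation, and all 9 are desmosomal cadherins, Dsg1c and Dsg4 being the others. Pkp1 lies on chromosome 1 at chr1:135871395-135919207, Jup at chr11:100368958-100397763 and Dsp at chr13:38151294-38198577. Reads of Dsg1a and Dsg1b cannot be divided with confidence. Of the 50-base windows of their annotated transcripts, 31.6% of those of Dsg1a occur also in Dsg1b and 45.5% of those of Dsg1b occur also in Dsg1a. With any other gene the shares were 35.0% for Dsg1a and 48.9% for Dsg1b. The levels of both paralogs and the split of counts between them are therefore uncertain. In each of the 8 other genes at most 0.733% of windows occur in the transcripts of another gene.

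Levels were compared between genes as CPM, counts scaled to library size, per kb of exon, averaged over the 12 libraries (mean ± SD, n = 12). Transcripts of the plaque genes came first: Pkp1 had 565 ± 88.9 CPM per kb, Dsp 495 ± 60.0 and Jup 317 ± 66.4. The differentiation-linked and basal cadherins followed, with Dsg1a at 168 ± 26.2, Dsc1 at 160 ± 33.7 and Dsc3 at 150 ± 17.9 CPM per kb. Dsg1b was at 33.3 ± 6.08, Dsg3 at 13.6 ± 2.28, Dsg2 at 7.52 ± 1.13 and Dsc2 at 1.82 ± 0.415 CPM per kb. Neighbours in this order were not all separable. Pkp1 exceeded Dsp in 9 of 12 libraries, and Dsg1a exceeded Dsc1, and Dsc1 exceeded Dsc3, in 7 of 12 each. Dsp exceeded Jup in 12 of 12 libraries although their ranges over libraries overlapped. From Jup to Dsg1a and from Dsc3 downwards, ranges did not overlap. Raw counts per library ran from 27175 to 66532 for Dsp and from 59 to 165 for Dsc2, so Dsc2 is the least precisely measured member.

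Within families, desmoglein signal was mostly Dsg1a, at a median of 75.1% of desmoglein CPM per kb (range 69.9% to 76.7% over libraries), ahead of Dsg1b at 15.1%, Dsg3 at 6.14%, Dsg2 at 3.45% and Dsg4 at 1.31%. The Dsg1a and Dsg1b shares carry the uncertainty given above. Desmocollin signal was shared by Dsc1 (median 52.6%) and Dsc3 (46.9%), with Dsc2 at 0.595%. Pkp1 made up a median of 71.5% of plakophilin signal, Pkp3 26.4%, Pkp4 2.24% and Pkp2 0.0492%.

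Coefficients of variation in CPM over the 12 libraries ran from 11.9% (Dsc3) to 22.7% (Dsc2), with a median of 16.2%, against a median of 19.0% over the 14582 genes tested. Of the 10, Jup, Dsc1 and Dsc2 lay above that median. Members are mostly highly expressed, and the difference was not tested. Together they took 1.07% to 1.42% of all counts in a library. Their summed level averaged 12718 ± 2091 CPM in Llgl cKO Trp53 het, 12341 ± 1988 in Llgl cKO, 12849 ± 868 in Trp53 het, against 12224 ± 521 in control epidermis (SD, n = 3 each), so the group means lay within the spread between mice.

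**Figure D1:**
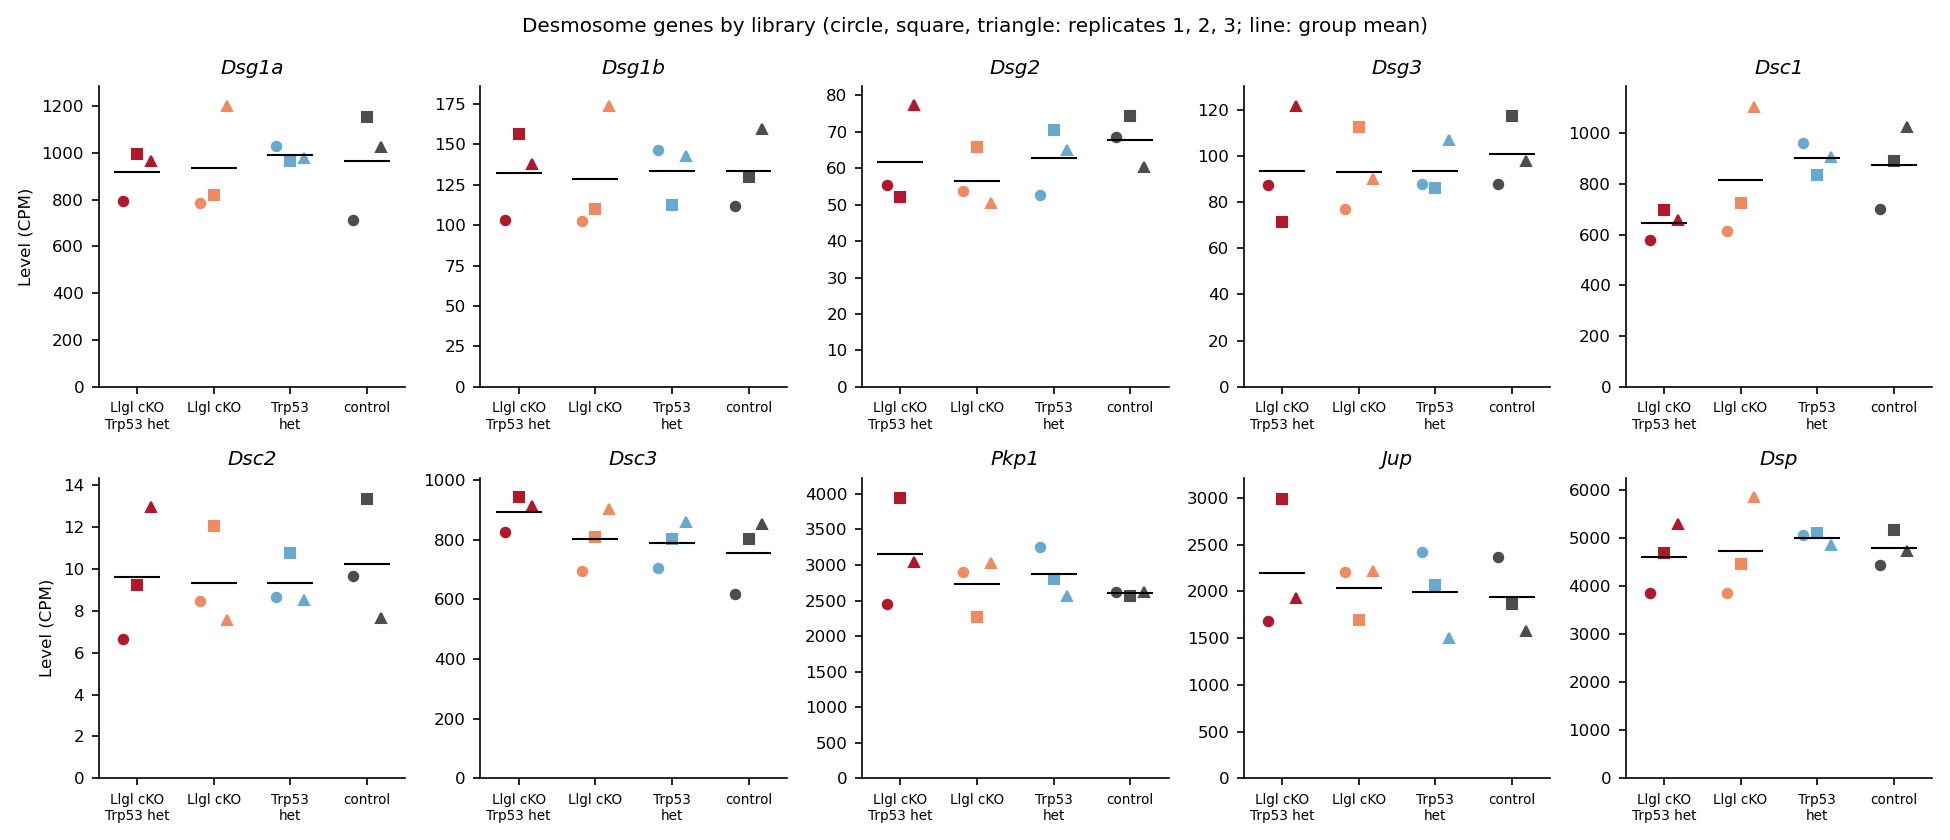
Level in CPM (y axis, from 0) of each of the 10 genes in each library, by genotype group; symbols are replicates 1 to 3 and the line is the group mean. Dsc1 is the member whose 3 Llgl cKO Trp53 het libraries, at 579.6 to 699 CPM, lie below all control and all Trp53 het libraries.

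Among the desmogleins, Dsg1a, which carries adhesion in the upper layers, had 796, 995 and 967 CPM in Llgl cKO Trp53 het epidermis, 786, 821 and 1200.3 in Llgl cKO, 1029, 965 and 979 in Trp53 het, against 713, 1155 and 1027 in control. The 4 groups overlapped, and the spread came from single libraries such as control 1 at the bottom and Llgl cKO 3 at the top. Dsg1b followed a like pattern, at 103, 156 and 138 CPM in Llgl cKO Trp53 het, 103, 110.0 and 174 in Llgl cKO, 146, 112 and 143 in Trp53 het, against 112, 129.6 and 159 in control.

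Dsg3, the basal desmoglein and the antigen of pemphigus vulgaris, had 87.5, 71.6 and 122 CPM in Llgl cKO Trp53 het, 76.9, 112 and 89.8 in Llgl cKO, 88.0, 85.9 and 107 in Trp53 het, against 87.6, 117 and 97.6 in control. Dsg2, the most widely expressed desmoglein across tissues, ran from 52.0 to 77.3 CPM in Llgl cKO Trp53 het, 50.4 to 65.7 in Llgl cKO, 52.6 to 70.5 in Trp53 het, against 60.5 to 74.3 in control. For both genes every pair of groups overlapped. As an average over the 2 Llgl cKO groups against Trp53 het and control, Dsg2 gave a log2 fold change of −0.14 (SE 0.12, 95% interval −0.41 to 0.12, edgeR adjusted p = 0.588) and Dsg3 −0.06 (95% interval −0.37 to 0.25).

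Dsc1, the desmocollin of the upper layers, differed most of the 10 in the average Llgl effect and in each comparison of Llgl cKO Trp53 het. It had 579.6, 699 and 659 CPM in Llgl cKO Trp53 het epidermis, 613, 724 and 1103 in Llgl cKO, 959, 835 and 907 in Trp53 het, against 702, 890.3 and 1026 in control. The Llgl cKO Trp53 het libraries lay below every Trp53 het and every control library, and overlapped with Llgl cKO, where replicate 3 stood high. The log2 fold change of Llgl cKO Trp53 het against Trp53 het was −0.48 (SE 0.21, 95% interval −0.94 to −0.02, unadjusted p = 0.043, edgeR adjusted p = 0.306). Against control it was −0.43 (SE 0.21, 95% interval −0.90 to 0.03, edgeR adjusted p = 0.394). Neither passed the threshold of an adjusted p below 0.05, and neither did under any alternative processing (log2 fold changes −0.55 to −0.41 with adjusted p from 0.182 to 0.536, and −0.57 to −0.30 with adjusted p from 0.266 to 0.704). Of all genes tested, 10.7% were lower without overlap in the first comparison and 9.2% in the second, so 1 member of 10 is near that background. In RNA from whole epidermis, fewer cells of a type and less RNA per cell cannot be told apart.

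Dsc3, the basal desmocollin, had 828, 945 and 912 CPM in Llgl cKO Trp53 het, 697, 809 and 902 in Llgl cKO, 706, 802 and 861 in Trp53 het, against 617, 802 and 852 in control. Its groups overlapped, with a log2 fold change of 0.24 in Llgl cKO Trp53 het against control (SE 0.16, 95% interval −0.10 to 0.58, edgeR adjusted p = 0.536). Dsc2, a minor desmocollin here, ran from 6.67 to 12.98 CPM in Llgl cKO Trp53 het, 7.57 to 12.03 in Llgl cKO, 8.51 to 10.8 in Trp53 het, against 7.66 to 13.3 in control, again with overlap of all groups.

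The ratio of Dsc1 to Dsc3, both per kb, sets the desmocollin of the upper layers against that of the lower ones. It was 0.750, 0.792 and 0.773 in Llgl cKO Trp53 het, 0.942, 0.958 and 1.31 in Llgl cKO, 1.46, 1.12 and 1.13 in Trp53 het, against 1.22, 1.19 and 1.29 in control. All 3 Llgl cKO Trp53 het values lay below the 9 others, which ran into one another. This ratio was singled out from several computed, after its values had been seen, and is given without a test. How often ratios of other gene pairs fall below all 9 others in this way was not computed. The like desmoglein ratio, Dsg1a and Dsg1b over Dsg3, overlapped in all groups, at 15.3 ± 4.91 in Llgl cKO Trp53 het, 15.1 ± 4.56 in Llgl cKO, 15.7 ± 1.87 in Trp53 het, against 14.0 ± 1.78 in control (SD, n = 3 each). So did the ratio of Krt10, a suprabasal keratin, to Krt5, a basal keratin, in CPM: 3.44 ± 0.571 in Llgl cKO Trp53 het, 4.03 ± 1.14 in Llgl cKO, 3.30 ± 0.538 in Trp53 het, against 3.24 ± 0.603 in control.

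**Figure D2:**
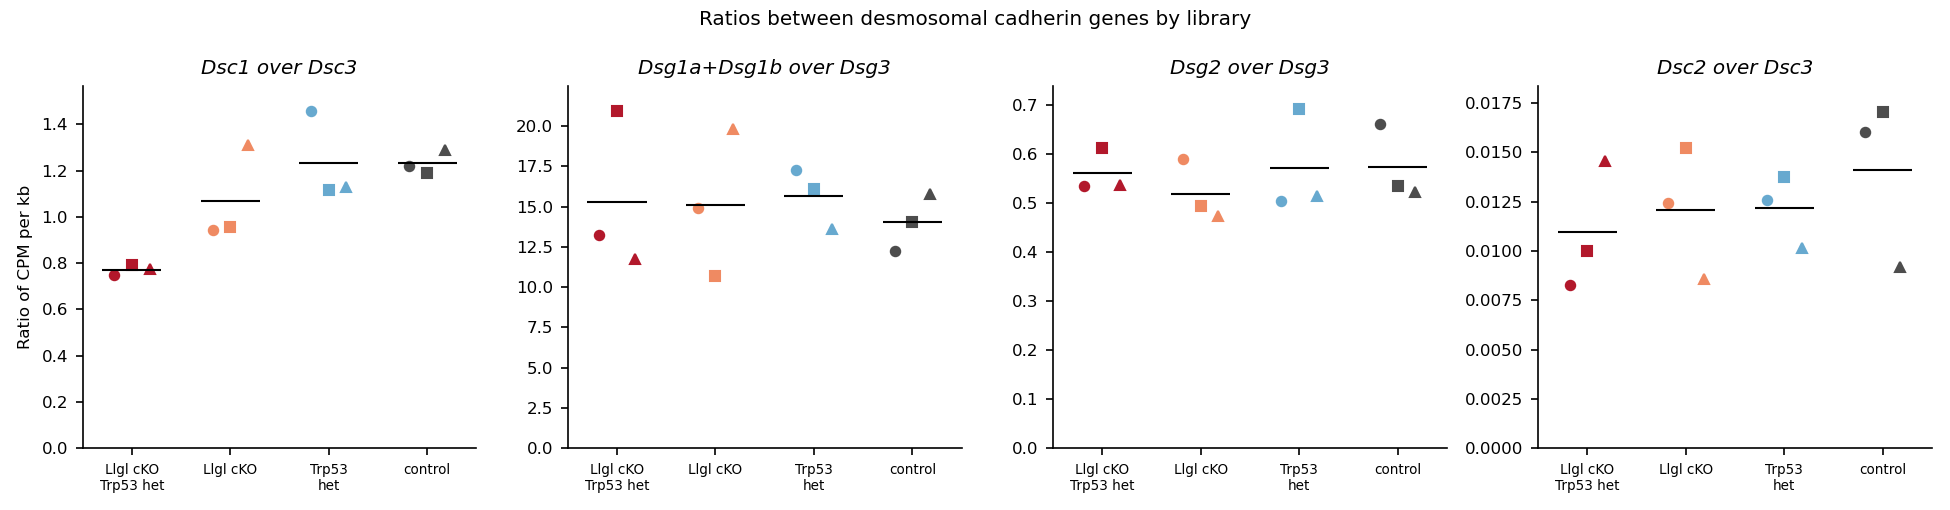
Ratios of CPM per kb between desmosomal cadherin genes (y axes, from 0) in each library by genotype group, with replicates 1 to 3 as circle, square and triangle and a line at the group mean. Dsc1 over Dsc3 lies between 0.750 and 0.792 in Llgl cKO Trp53 het libraries and at 0.942 or higher in all others, and the other 3 ratios overlap between groups. The Dsc1 over Dsc3 ratio was singled out after its values had been seen and was not tested.

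In the plaque, Pkp1, which clusters desmosomal cadherins and is lost in a human skin fragility syndrome, had 2458, 3946 and 3040.5 CPM in Llgl cKO Trp53 het, 2908, 2272 and 3031 in Llgl cKO, 3247, 2798 and 2562 in Trp53 het, against 2621, 2564 and 2614 in control. Jup, whose product also joins classical cadherins, had 1682, 2990.4 and 1931 CPM in Llgl cKO Trp53 het, 2208, 1689.6 and 2215 in Llgl cKO, 2419, 2066 and 1503 in Trp53 het, against 2366, 1861 and 1581 in control. For both, Llgl cKO Trp53 het 2 was the highest of the 12 libraries, and the other 2 of its group lay within the range of the other groups. The fitted log2 fold change of Llgl cKO Trp53 het against control was 0.28 for Pkp1 (95% interval −0.13 to 0.68, edgeR adjusted p = 0.555) and 0.19 for Jup (95% interval −0.37 to 0.74, adjusted p = 0.801).

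Dsp, the link to keratin, had 3849.5, 4697 and 5288 CPM in Llgl cKO Trp53 het, 3861, 4462 and 5859.6 in Llgl cKO, 5066, 5093 and 4852 in Trp53 het, against 4444, 5168 and 4733 in control. The groups overlapped, and the 2 Llgl cKO groups spread more widely (SD 723 and 1025 CPM) than Trp53 het (132) and control (365). That difference in spread was not tested. Over both Llgl cKO groups the log2 fold change was −0.07 (SE 0.13, 95% interval −0.34 to 0.21, edgeR adjusted p = 0.828).

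Across the set, no genotype moved any of the 10 genes past the threshold. Loss of Llgl, averaged over both Trp53 backgrounds, gave 0 of 10 members called, where 3.33% of the 14582 genes tested were called. The log2 fold changes ran from −0.29 (Dsc1, edgeR adjusted p = 0.335) to 0.13 (Dsc3), 3 above and 7 below 0, with a median of −0.05 against 0.00 for all genes tested. Their 95% intervals reached from −0.62 (Dsc1) to 0.50 (Jup), so changes of 2-fold or more, a log2 change of 1, lay outside every member's interval in this comparison. At an unadjusted p under 0.05 the count was also 0 of 10, where 18.2% of all genes tested passed, and DESeq2 called 0 of 10, where it called 7.09% of all genes.

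Each Llgl comparison on its own gave the same count of 0 of 10. In Llgl cKO Trp53 het against control, where 1.25% of genes were called, log2 fold changes ran from −0.43 (Dsc1) to 0.28 (Pkp1), with 3 members above and 7 below 0. In Llgl cKO against control, where 0.226% were called, they ran from −0.26 (Dsg2) to 0.08 (Dsc3). In Llgl cKO Trp53 het against Trp53 het, where 1.36% were called, they ran from −0.48 (Dsc1) to 0.18 (Dsc3). The 95% intervals of the 10 members stayed between −0.94 and 0.74 in these 3 comparisons. At an unadjusted p under 0.05, 0, 0 and 1 of 10 passed (the last was Dsc1), against 13.9%, 6.31% and 15.4% of all genes. DESeq2 also called 0 of 10 in each, where it called 4.42%, 0.782% and 4.95% of all genes. The first 2 comparisons share the control libraries, and those of Llgl cKO Trp53 het with control and with Trp53 het share the Llgl cKO Trp53 het libraries.

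Loss of a Trp53 allele gave no call among the 10 either, but here the test called 0% of all genes. In Llgl cKO Trp53 het against Llgl cKO the members' log2 fold changes ran from −0.33 (Dsc1) to 0.20 (Pkp1), in Trp53 het against control from −0.14 (Dsc2) to 0.14 (Pkp1), and on average over both backgrounds from −0.14 (Dsc1) to 0.17 (Pkp1). The intervals reached from −0.79 (Dsc1) to 0.66 (Jup), from −0.77 (Dsc2) to 0.59 (Jup) and from −0.49 (Dsc2) to 0.47 (Jup). At an unadjusted p under 0.05, 0 of 10 members passed in each, against 5.12%, 0.432% and 2.17% of all genes. DESeq2 called 0 of 10 in each, and 0.357%, 0% and 0% of all genes. None of these fits paired libraries by replicate number.

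The interaction asks whether loss of Llgl had a different effect with a single Trp53 allele floxed than without. For 0 of 10 members did it pass, as for 0% of all genes by edgeR and by DESeq2, and 0 of 10 members and 2.94% of all genes had an unadjusted p under 0.05. Estimates ran from −0.38 (Dsc1, SE 0.30) to 0.23 (Dsg2, SE 0.24), with intervals from −1.03 (Dsc1) to 1.06 (Dsc2). For Dsc1 and Dsc2 these reach past 2-fold, so the intervals with 3 mice a group include a difference of that size.

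**Figure D3:**
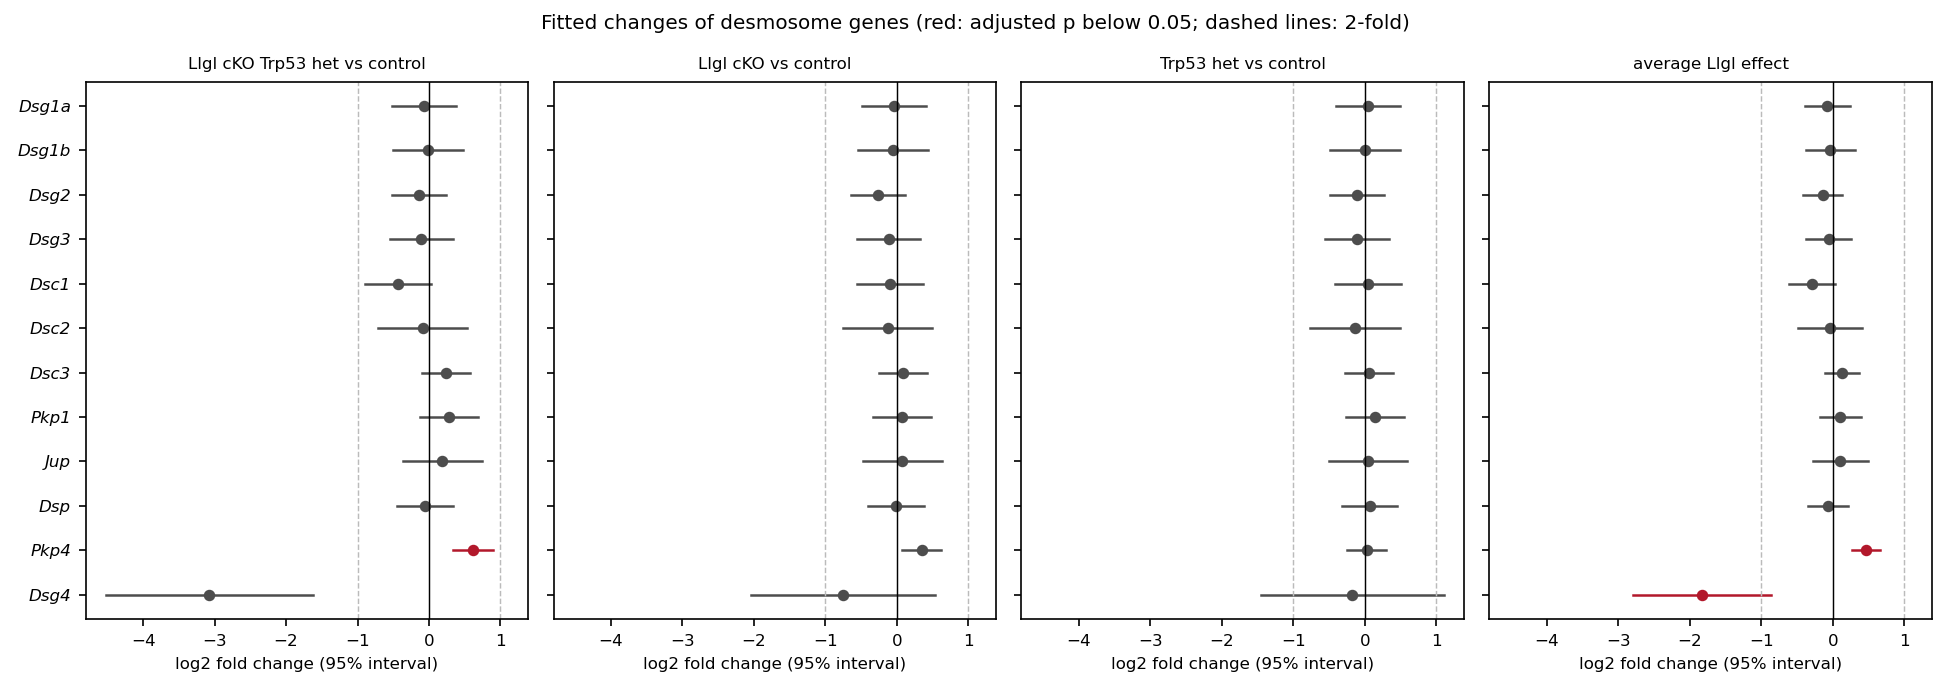
Fitted log2 fold changes (x axes) with 95% intervals for the 10 genes, Pkp4 and Dsg4 in 4 comparisons; red marks an edgeR adjusted p below 0.05 and dashed lines a 2-fold change. The intervals of all 10 members cross the zero line and stay inside 2-fold, while Pkp4 is marked in Llgl cKO Trp53 het against control and, with Dsg4, in the average Llgl effect.

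How the members moved together over libraries was described by the mean absolute difference between centred log2 CPM profiles over the 12 libraries. The closest pairs were Dsg1a with Dsp (0.10), Pkp1 with Jup (0.12), Dsg1a with Dsg1b (0.13) and Dsg2 with Dsg3 (0.14), and the most distant was Dsg3 with Jup (0.42). Single libraries stood out across several genes: Llgl cKO 3 was high for Dsg1a, Dsg1b, Dsc1 and Dsp and low for Dsg2 and Dsc2, and Llgl cKO Trp53 het 1 was below the gene's mean for all members but Dsc3. Values of a library share its depth, and the pattern carries no test.

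**Figure D4:**
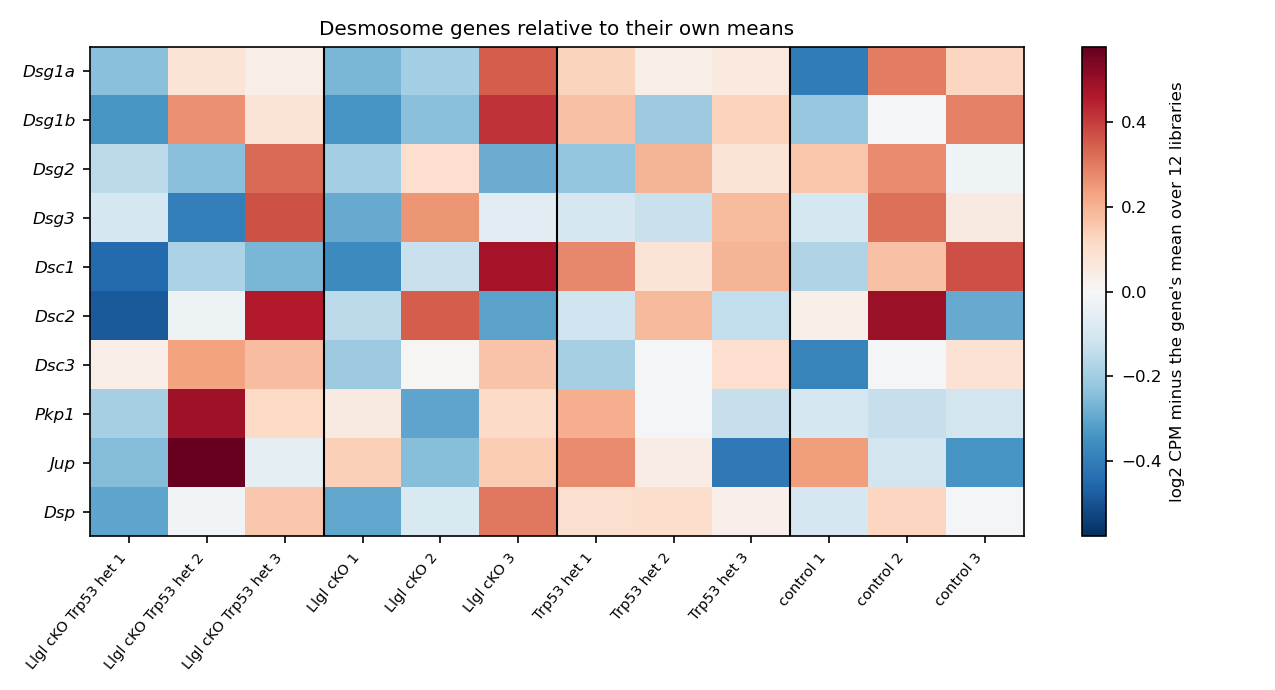
Heat map of log2 CPM minus each gene's mean over 12 libraries (colour scale) for the 10 genes (rows) in each library (columns, grouped by genotype with lines between groups). The strongest departures sit in single libraries, such as Jup at 0.58 and Pkp1 at 0.49 in Llgl cKO Trp53 het 2.

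By the same measure, among 9539 genes with a mean of at least 10 CPM, those nearest to the mean profile of the 10 members were Cpd (0.04), Btbd3 (0.05), Ept1 (0.05), Slmap (0.05) and Arf4 (0.06). Nearest to single members were Gng12 for Dsg1a (0.07), Atp13a4 for Dsg1b (0.10), Rp2h for Dsg2 (0.09), Zbtb18 for Dsg3 (0.08), Mpp7 for Dsc1 (0.09), Dtx4 for Dsc2 (0.15), Tmem33 for Dsc3 (0.06), Pgrmc2 for Jup (0.06) and Wnk1 for Dsp (0.05). For Pkp1 it was Perp (0.07), which encodes a tetraspan membrane protein of desmosomes and is a transcriptional target of the p53 family.

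Beyond these 10, 9 further desmosome genes were in the table and 8 were tested. In the average Llgl effect 1 was called higher, Pkp4, and 1 lower, Dsg4, where 1.18% of all genes were called higher and 2.15% lower. Pkp4, an armadillo protein of desmosomes and adherens junctions, had 127, 110.3 and 145 CPM in Llgl cKO Trp53 het, 109.7, 108 and 100.05 in Llgl cKO, 75.0, 87.5 and 91.8 in Trp53 het, against 78.0, 78.8 and 93.2 in control. All 6 Llgl cKO libraries lay above all 6 others, as for 1.29% of all genes tested. It rose by a log2 fold change of 0.47 in the average Llgl effect (SE 0.09, edgeR adjusted p = 0.0193), 0.61 in Llgl cKO Trp53 het against control (SE 0.13, adjusted p = 0.0456) and 0.59 against Trp53 het (SE 0.13, adjusted p = 0.0492), and DESeq2 called all 3. In Llgl cKO against control it gave 0.34 (adjusted p = 0.655). The average call held in 14 of 19 alternatives and was lost without Llgl cKO Trp53 het 3, Llgl cKO 1, Trp53 het 1, Trp53 het 2 or control 2 (adjusted p up to 0.0636). The pairwise calls held in 8 and 7 of 20 alternatives and, of the 12 left-out libraries, only without Trp53 het 3 or control 3 (adjusted p up to 0.197 and 0.193).

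Dsg4, the desmoglein of the hair shaft, had 3.06, 0.512 and 2.26 CPM in Llgl cKO Trp53 het, 5.84, 19.2 and 4.23 in Llgl cKO, 15.8, 16.1 and 12.1 in Trp53 het, against 17.0, 23.0 and 9.67 in control. The Llgl cKO Trp53 het libraries lay below all 9 others, and Llgl cKO 2 stood with the groups that keep Llgl. Of all genes tested, 9.2% were lower without overlap in Llgl cKO Trp53 het against control and 10.7% against Trp53 het. The share lying below all 9 others was not computed. Dsg4 fell in the average Llgl effect by 1.83 on the log2 scale (SE 0.44, edgeR adjusted p = 0.0484). That call held in 8 of 19 alternatives, and of the 12 left-out libraries only without Llgl cKO 2, Trp53 het 3 or control 3 (adjusted p up to 0.129). In Llgl cKO Trp53 het its log2 fold change was −3.07 against control (adjusted p = 0.0521) and −2.90 against Trp53 het (adjusted p = 0.0598), and DESeq2 called both (adjusted p = 5.36e-05 and 0.000167). For Llgl cKO against control DESeq2 gave −0.76 (adjusted p = 0.9996), so the fall was not called there. For Llgl cKO Trp53 het against Llgl cKO it gave −2.33 (DESeq2 adjusted p = 0.0435). In that last comparison edgeR called 0% of all genes and DESeq2 0.357%. Hair markers, of the shaft and the inner root sheath, moved with Dsg4. In the average effect 8 of 8 were lower and called, where 3.33% of all genes were called. The same held in Llgl cKO Trp53 het against control (1.25% of all genes) and against Trp53 het (1.36%). In Llgl cKO against control 8 of 8 were lower but 0 were called (0.226% of all genes). Their median log2 fold change was −1.56 there and −4.48 in Llgl cKO Trp53 het against control. Their summed level ranged from 96.8 to 379 CPM in Llgl cKO Trp53 het, 900 to 3026 in Llgl cKO, 2031 to 5389 in Trp53 het, against 1353 to 6730 in control, and none was at 0 in all libraries. Among them Krt33b, a hair keratin, gave −3.82 (SE 0.65, adjusted p = 0.0141) and Tchh, trichohyalin, −2.95 (SE 0.50, adjusted p = 0.0144) in the average effect. In the 3 comparisons with calls all 8 were lower under every alternative run, but the pairwise calls lay near the threshold. The edgeR adjusted p was 0.0308 to 0.0456 in Llgl cKO Trp53 het against control and 0.0315 to 0.0476 against Trp53 het. Leaving out any of several libraries ended calls. Against control 0 of 8 were called without Llgl cKO Trp53 het 2, Llgl cKO Trp53 het 3, Trp53 het 2, control 1 or control 2, with no low-count filter, or with only the groups compared (adjusted p up to 0.189), and 5 of 8 without Llgl cKO 1 or Llgl cKO 3. Against Trp53 het 0 of 8 were called without Llgl cKO Trp53 het 2, Llgl cKO Trp53 het 3, Trp53 het 1, Trp53 het 2 or control 2, or with no low-count filter (adjusted p up to 0.181). There 2 of 8 were called without Llgl cKO 3 or control 1, and 5 of 8 without Llgl cKO 1 or with only the groups compared. In the average effect 1 of 8 was called with no low-count filter, 2 when Llgl cKO Trp53 het 2 was left out, 3 when Llgl cKO Trp53 het 3 was, and 5 without Llgl cKO 1, Llgl cKO 3, Trp53 het 2 or control 2 (adjusted p up to 0.114). DESeq2 called 8 of 8 in the average effect and in Llgl cKO Trp53 het against control and against Trp53 het. The part of hair follicle content in the fall of Dsg4 was not tested.

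**Figure D5:**
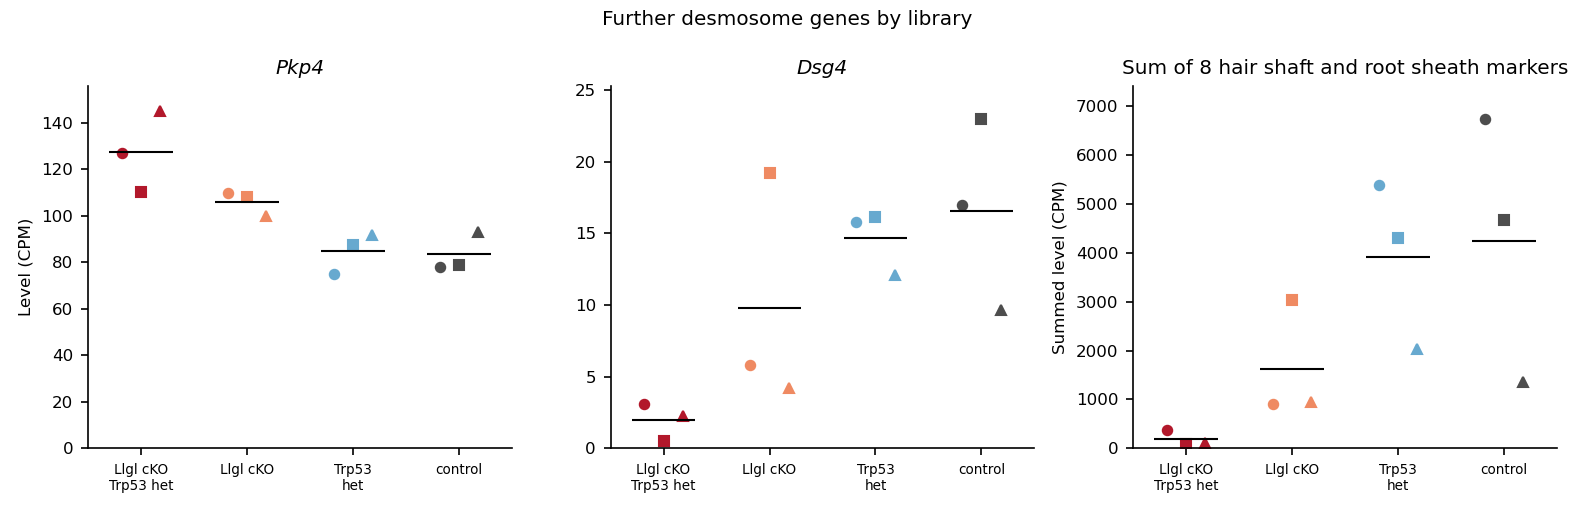
Level in CPM of Pkp4 and of Dsg4, and summed CPM of the 8 hair markers (y axes, from 0), in each library by genotype group, with a line at the group mean. Pkp4 lies at 100.05 CPM or above in the 6 Llgl cKO libraries and at 93.2 or below in the others, while Dsg4 and the hair markers are lowest in Llgl cKO Trp53 het.

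The other 6 of the 8 were not called in any comparison. In the average Llgl effect Pkp2, the main plakophilin of heart, gave −0.44 (SE 0.31), Pkp3, found in all epidermal layers, −0.04 (SE 0.15), Perp 0.16 (SE 0.12), Cdsn, corneodesmosin of the cornified layer, −0.26 (SE 0.29), and the cornified-envelope plakins Ppl −0.02 (SE 0.16) and Evpl 0.10 (SE 0.17). Dsg1c had 2 to 8 counts a library and was not tested.

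Regulators of desmosome genes gave 0 of 9 called in every comparison, where 0% to 3.33% of all genes were called. In the average Llgl effect 8 of 9 lay above 0, with a median log2 fold change of 0.12 against 0.00 for all genes; Trp63, the p63 factor of stratified epithelia, gave 0.21 (SE 0.13, edgeR adjusted p = 0.428), Klf5 0.25 (SE 0.10, adjusted p = 0.211), Zfp750 0.34 (SE 0.13, adjusted p = 0.209) and Grhl1, which binds Dsg1 promoters in mouse, −0.01 (SE 0.12, adjusted p = 0.977). Of proteases that cut desmosomal cadherins and their inhibitors, 5 of 7 tested had log2 fold changes below 0 in the average Llgl effect, with a median of −0.32 against 0.00 for all genes. An unadjusted p under 0.05 was reached by 4 of 7 (18.2% of all genes): Klk5 (−0.42, edgeR adjusted p = 0.251) and Klk6 (−1.29, adjusted p = 0.201), which are kallikrein serine proteases, Cst6 (−0.95, adjusted p = 0.194), which is the cystatin M/E protease inhibitor, and Adam10 above 0. None of the 7 was called lower, and 1 was called higher, where 1.18% of all genes were. That one was Adam10, a sheddase of Dsg2, which had 134, 129 and 165 CPM in Llgl cKO Trp53 het, 137, 149 and 148 in Llgl cKO, 97.7, 111 and 121 in Trp53 het, against 96.5, 119 and 118 in control. Its average Llgl effect was 0.38 (SE 0.09, adjusted p = 0.0498), a call that held in 7 of 19 alternatives and, of the 12 left-out libraries, only without Trp53 het 3 or control 3 (adjusted p up to 0.131).

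Other junctions were set beside the desmosome. In the average Llgl effect 0 of 8 adherens junction genes and 0 of 11 tight junction genes were called, where 3.33% of all genes were. Of the adherens junction genes 6 of 8 lay above 0 (median log2 fold change 0.16), and of the tight junction genes 7 of 11 (median 0.02). An unadjusted edgeR p under 0.05 was reached by 3 of 8 and 2 of 11 (18.2% of all genes). Summed adherens junction levels were 3305 to 3617 CPM in Llgl cKO Trp53 het and 3217 to 3496 in Llgl cKO. They were 2719 to 3043 CPM in Trp53 het and 2699 to 3124 in control. In Llgl cKO Trp53 het against Trp53 het, where 1.36% of all genes were called, 1 of the 8 adherens junction genes was. It was Pdlim1, an actin-associated gene, which rose by 0.65 on the log2 scale (SE 0.13, edgeR adjusted p = 0.0369). That call held in 13 of 20 alternatives and was lost without Llgl cKO Trp53 het 2, Llgl cKO Trp53 het 3, Trp53 het 1, Trp53 het 2, control 1 or control 2.

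Layer markers were present throughout: the 7 basal markers summed to 15330 to 21418 CPM and the 4 spinous markers to 50422 to 97370 CPM over the 12 libraries. In any comparison 0 of 7 and 0 of 4 were called, where 0% to 3.33% of all genes were. In the average Llgl effect 2.15% of all genes were called lower. Of 7 granular markers 1 was, Ivl, the envelope precursor involucrin, by 0.93 on the log2 scale (SE 0.21, edgeR adjusted p = 0.0317). Its call held in 9 of 19 alternatives and, of the left-out libraries, only without Trp53 het 3 or control 3. Of T cell markers 2 of 6 were lower and called in that effect, Cd3g and Il2rb, with log2 fold changes of −2.32 and −2.44. So were both tested adipocyte markers, Fabp4 and Retn, at −2.94 and −3.83. The 4 adipocyte markers together summed to 0.335 to 0.769 CPM in Llgl cKO Trp53 het and 1.67 to 3.57 in Llgl cKO. They summed to 2.71 to 17.4 CPM in Trp53 het and 2.02 to 29.1 in control. Fabp4 and Retn were thus near the floor in Llgl cKO Trp53 het and passed the low-count filter through other groups. All 6 T cell markers were lower with an unadjusted edgeR p under 0.05, which 18.2% of all genes reached in either direction. Those 4 calls held in 9, 14, 10 and 8 of 19 alternatives. Leaving out Llgl cKO Trp53 het 2, Llgl cKO 1, Trp53 het 1, Trp53 het 2 or control 2 ended all 4, and Cd3g, Fabp4 and Retn were lost also without Llgl cKO Trp53 het 3, Llgl cKO 3 or control 1. Cd3g and Retn were lost without Llgl cKO 2, and Fabp4 and Retn without Llgl cKO Trp53 het 1. The highest adjusted p among these 4 genes was 0.117. Fibroblast markers summed to 172 to 239 CPM in Llgl cKO Trp53 het, 122 to 209 in Llgl cKO, 32.6 to 138 in Trp53 het, against 27.8 to 143 in control, with 0 of 5 called. The 5 tested fibroblast markers did not all go the same way. In the average Llgl effect 3 were higher and 2 lower. In Llgl cKO Trp53 het against Trp53 het 2 were higher and 3 lower, with a median log2 fold change of −0.11. Of melanocyte, macrophage and Langerhans cell, endothelial and mitochondrial markers 0 were called in any comparison, and muscle markers summed to at most 1.42 CPM. The part of these contents in the members' values was not tested.

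Library totals ran from 6738720 (control 1) to 14509507 (Llgl cKO 1) counts. Llgl2 averaged 8.51 ± 3.38 CPM in Llgl cKO Trp53 het, 8.35 ± 1.16 in Llgl cKO, 90.9 ± 22.0 in Trp53 het, against 86.7 ± 22.3 in control (SD, n = 3 each), lower in both groups labelled cKO. Llgl1 counts were not lower but higher in both, at 215 ± 30.5, 256 ± 33.1, 133 ± 9.58 and 138 ± 30.6 CPM in the same order. Their ranges, 187 to 248, 218 to 280, 122 to 140 and 115 to 173 CPM, put every Llgl cKO library above every other, as for 1.29% of all genes tested. Whole-gene Llgl1 counts therefore do not check the deletion, and the cause of the rise was not tested. Trp53 averaged 77.3 ± 18.2, 118 ± 5.501, 79.2 ± 30.9 and 121 ± 10.98 CPM in that order, with Trp53 het 3 at 115 and Llgl cKO Trp53 het 1 at 98.3, higher than the others of their groups. Trp53 het 3 lay within the ranges of control (109 to 130 CPM) and Llgl cKO (112 to 122 CPM). Its whole-gene Trp53 counts therefore show no reduction. Control 3 and Trp53 het 3 stood apart from their groups: without these 2 libraries 0 of 10 members were called in any of the 8 comparisons. The shares of all genes called were then 15.8% in the average Llgl effect, 7.72% in Llgl cKO Trp53 het against control, 7.37% against Trp53 het and 2.8% in Llgl cKO against control. They were 0.00677% in Llgl cKO Trp53 het against Llgl cKO and in Trp53 het against control, 0.0135% in the average Trp53 effect and 0% in the interaction.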

How the data were processed

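RNA-seq counts of 12 newborn epidermis libraries, 1 per mouse, were analysed. Per the labels' protocols, libraries came from a stranded mRNA kit and total RNA. The deposited table holds raw counts per gene, not normalized by the authors; per the submitters' processing notes, STAR, featureCounts 1.6.4, DESeq2 2.11.40.8 and GRCm38 were used. The annotation release and strand setting are not given in the sources used here.

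Counts were fitted in R 4.3.3 with edgeR 4.0.16 (TMM scaling, filterByExpr minimum count 10, robust quasi-likelihood, group means over 12 libraries, 8 residual degrees of freedom). Of 46078 genes, 14582 were tested, with Benjamini-Hochberg adjustment over all of them and calls at adjusted p below 0.05. All p-values without another tool named are from edgeR and two-sided. Effects are the first group over the second; average effects use 6 against 6 libraries. Standard errors are the log2 fold change over the square root of F. Levels are CPM on TMM-scaled totals; exon lengths came from GENCODE M21, which holds 45229 of the identifiers, and promoters from RefSeq. Likeness used log2 CPM with a prior count of 2.

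The members and gene lists were chosen with earlier results of these data known. Named genes were the 10 members, Llgl1, Llgl2, Trp53, all further desmosome genes, called members of other lists (the 2 with the smallest p where over 3 were called), and the genes nearest in profile; Zfp750, Klf5, Trp63 and Grhl1 were named after their values were seen. Some genes that this rule names are not reported here. Tests were tried on simulated counts. Alternatives were scaling by upper quartiles or by median of ratios, no filter or 1 CPM in 3 libraries, DESeq2 1.42.0, only the groups compared, a replicate block, each library left out and, added after seeing the data, control 3 and Trp53 het 3 left out together. Replicate numbers were taken to pair Trp53 het with control only, from the data: deviations of same-numbered libraries correlated at 0.62, 0.21 and 0.82, and nothing in the labels names a shared litter or day. The main fit holds no pairing term, so its estimates and intervals for Trp53 het against control are unpaired. Only the replicate block alternative has such a term, set over all 4 groups.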

Additional observations from a re-analysis of the deposited data

How the results depend on the processing

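In each of the 8 comparisons 0 of the 10 desmosome genes were called under every alternative run (20 settings for each pairwise comparison, 19 for the others). That includes the replicate block, under which 0 were called in the paired comparison of Trp53 het with control, 0 in each other comparison, and 0 genes at all in Trp53 het against control. Counts over all genes moved more. Under the block they were 347 for Llgl cKO Trp53 het against control (182 without it), 376 against Trp53 het (198 without it), 31 for Llgl cKO against control (33) and 664 for the average Llgl effect (485). Replicate numbers were not taken to pair these groups, where some same-numbered correlations were 0.1 or less. That choice was made from the data, and a pairing was not tested. DESeq2 called 644, 722, 114 and 1034 in the same order, and 52 where edgeR called 0 in Llgl cKO Trp53 het against Llgl cKO. With only the groups compared the first 2 counts were 42 and 113. Leaving out single libraries gave 25 (without control 2) to 351 (without control 3), 24 (without Llgl cKO Trp53 het 3) to 322 (without Trp53 het 3), 15 (without control 2) to 42 (without Trp53 het 3), and 164 (without control 2) to 697 (without Trp53 het 3). Without both control 3 and Trp53 het 3 they were 1139, 1088, 413 and 2334. The cause was not tested. Signs of the members' uncalled log2 fold changes often turned: in Llgl cKO against control 9 of 10 members, all but Dsg2, had the opposite sign in at least 1 of 20 alternatives and at most 5. The count was 6 of 10 in each of Llgl cKO Trp53 het against control and against Trp53 het, 4 in the average Llgl effect, 7 in Llgl cKO Trp53 het against Llgl cKO and in the interaction, and 8 in Trp53 het against control and in the average Trp53 effect; Dsc1 kept its sign in the average Llgl effect and in both comparisons of Llgl cKO Trp53 het with a group that keeps Llgl. With 59 to 165 counts a library, Dsc2 had the widest 95% intervals of the 10 in every comparison.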
